A study of Homo sapiens with 6 samples.

Results

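The 9 genes described here are immediate early genes that do not code for AP-1 subunits: EGR1, KLF6, IER2, IER3, IER5, DUSP1, ZFP36, BTG1 and MCL1. They were fixed by name and by a start site each on the hg19 build, and every interval of open chromatin that the authors called within 2 kb of a start site was taken. Of the 9 genes, 8 had such an interval in at least 1 library, and 38 intervals were found over the 6 libraries. The whole series holds 17466 regions of open chromatin once the 6 peak lists are merged.

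The lists come from ATAC-seq, in which a transposase cuts and tags accessible DNA, in K562, an established human leukaemia line. The series concerns immediate early gene activation by SLFN11 under replication stress. The 3 K562 lines carried a vector control, overexpressed wild-type SLFN11, a protein recruited to stressed replication forks, or overexpressed SLFN11 with the substitution E669Q. Each line was sampled with DMSO, or with 1000 nM of the topoisomerase I poison camptothecin (CPT) for 4 h, 1 library per group, so no difference below has a replicate check. The labels do not say how long DMSO was given, or whether a line is 1 clone. SLFN11 levels and the identity of the cells were not checked, since the lists carry no gene names and no hg19 annotation was used.

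Immediate early genes are transcribed within minutes of a stimulus, without new protein synthesis. Kinase signalling acts on factors that already sit at their promoters, such as SRF with its ETS partners at serum response elements and CREB at cAMP response elements. Their promoters are therefore often open before the stimulus. Their products then either carry the response on, as EGR1 does, or end it, as the phosphatase DUSP1 and the mRNA decay factor ZFP36 do.

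The promoters of EGR1, IER5, DUSP1, KLF6 and BTG1, which had intervals at or near the start, and of ZFP36, which had none, are shown to set their regulatory sites beside the peak data. These are the 250 bases before the RefSeq start on GRCh38.p14, printed along the gene's own strand. Capitals mark matches, on either strand, to the TATA box (TATAAA), the CArG box of serum response elements, the cAMP response element (TGACGTCA) and its core (TGACG), the AP-1 site (TGANTCA), the GC box (GGGCGG), the ETS site (CCGGAAG), the EGR site (GCGTGGGCG) and the CCAAT box (CCAAT). Every full cAMP response element also holds the core on each strand. EGR1 lies at chr5:138465229-138465478 on the plus strand, IER5 at chr1:181088450-181088699 on the plus strand, DUSP1 at chr5:172771196-172771445 on the minus strand, KLF6 at chr10:3785210-3785459 on the minus strand, BTG1 at chr12:92145847-92146096 on the minus strand and ZFP36 at chr19:39406597-39406846 on the plus strand.
EGR1: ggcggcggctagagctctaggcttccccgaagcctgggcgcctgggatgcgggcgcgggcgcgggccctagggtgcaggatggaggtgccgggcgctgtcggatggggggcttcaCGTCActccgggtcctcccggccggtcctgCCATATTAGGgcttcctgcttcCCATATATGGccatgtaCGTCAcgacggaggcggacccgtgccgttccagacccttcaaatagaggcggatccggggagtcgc
IER5: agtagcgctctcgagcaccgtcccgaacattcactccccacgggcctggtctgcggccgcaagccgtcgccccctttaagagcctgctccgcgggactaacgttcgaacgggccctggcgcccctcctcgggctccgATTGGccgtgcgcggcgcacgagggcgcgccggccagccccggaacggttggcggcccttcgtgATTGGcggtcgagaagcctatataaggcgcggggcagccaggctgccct
DUSP1: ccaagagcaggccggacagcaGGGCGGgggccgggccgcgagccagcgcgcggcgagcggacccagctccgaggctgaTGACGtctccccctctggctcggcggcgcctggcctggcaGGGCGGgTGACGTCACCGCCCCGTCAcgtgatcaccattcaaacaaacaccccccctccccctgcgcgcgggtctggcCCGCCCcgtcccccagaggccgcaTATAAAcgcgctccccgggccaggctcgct
KLF6: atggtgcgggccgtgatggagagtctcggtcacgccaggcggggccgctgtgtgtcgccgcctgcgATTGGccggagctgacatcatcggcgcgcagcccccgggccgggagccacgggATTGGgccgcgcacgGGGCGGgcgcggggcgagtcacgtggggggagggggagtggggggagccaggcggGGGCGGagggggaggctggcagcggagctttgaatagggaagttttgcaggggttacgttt
BTG1: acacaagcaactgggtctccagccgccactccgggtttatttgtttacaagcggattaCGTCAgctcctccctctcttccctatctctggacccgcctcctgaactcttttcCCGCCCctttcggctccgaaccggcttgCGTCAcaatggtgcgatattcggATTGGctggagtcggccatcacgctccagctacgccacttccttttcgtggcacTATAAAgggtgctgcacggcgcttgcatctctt
ZFP36: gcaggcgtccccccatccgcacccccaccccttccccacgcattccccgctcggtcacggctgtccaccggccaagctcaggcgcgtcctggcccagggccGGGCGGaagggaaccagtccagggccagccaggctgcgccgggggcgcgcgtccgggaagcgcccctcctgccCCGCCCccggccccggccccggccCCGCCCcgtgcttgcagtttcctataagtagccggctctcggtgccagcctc

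The promoters differed in the sites they hold. That of EGR1 has 2 CArG boxes, from 105 to 96 and from 83 to 74 bases before the start, and 1.16% of the 35116 RefSeq promoters of this length hold at least 1. It was the only one of the 7 promoters searched, which include IER2, with a CArG box. DUSP1 alone had a full cAMP response element, 125 to 118 bases before the start, which 1.65% of promoters hold. The core TGACG was in 4 of the 7 (EGR1, IER2, DUSP1 and BTG1), against 21.2% of promoters. The exact TATA box letters TATAAA lay 30 to 25 bases before the start of DUSP1 and 33 to 28 before that of BTG1. In this window 10.7% of promoters have them. Variants of these letters were not searched, so the other promoters may still hold a TATA box. GC boxes were in 5 of the 7 (42.6% of promoters) and CCAAT boxes in 3 of the 7, IER5, KLF6 and BTG1 (32.0%). No AP-1 site (6.57% of promoters) and no EGR site (0.720%) matched in the 7, and the ETS site (8.52%) matched in IER2 alone. These are matches of letters in a short window. The GC content was 56.4% to 76.4%, with a median of 70.4% against 58.0% for all promoters. IER3 and MCL1 were not searched. The RefSeq starts are on another build than the peaks and need not be the same base as the start sites used below, so summits were not placed on these sequences.

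The number of genes with an interval went with the length of the peak list. Vector with DMSO had 3 of the 9 genes (DUSP1, KLF6 and BTG1), and vector with CPT had 6, with EGR1, IER5 and MCL1 added. Wild-type SLFN11 had 7 with DMSO and 5 with CPT. E669Q had 7 with DMSO and 8 with CPT. Sequencing depth, recovered from the deposited values and relative to vector with DMSO, was 1.09 in CPT-treated vector cells, 1.72 (DMSO) and 1.09 (CPT) in cells with wild-type SLFN11, and 1.33 (DMSO) and 2.22 (CPT) in the E669Q line. Of all merged regions, 29.7% were called in vector with DMSO and 32.7% with CPT. The shares were 65.7% and 31.4% in wild-type SLFN11, and 46.9% and 69.2% in E669Q. The libraries thus fell in the same order by genes called as by regions called, with the DMSO libraries of the SLFN11 lines tied at 7 genes, and values scaled for depth are given below. KLF6 and BTG1 were called in all 6 libraries, as were 12.3% of merged regions.

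Values are given in 2 forms. The authors' fold is the enrichment at the summit over local background. The depth-scaled summit pileup is the number of fragments over the summit, recovered from the authors' fold and p-value, divided by the relative depth of the library. Its 95% intervals are exact Poisson intervals and cover counting error only. The recovery assumes the MACS2 formulas for fold and p-value. The settings used are not given, so the units counted may be reads rather than fragments. In these bulk samples, fewer cells with an open site and a less open site in each cell cannot be told apart.

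**Figure D1:**
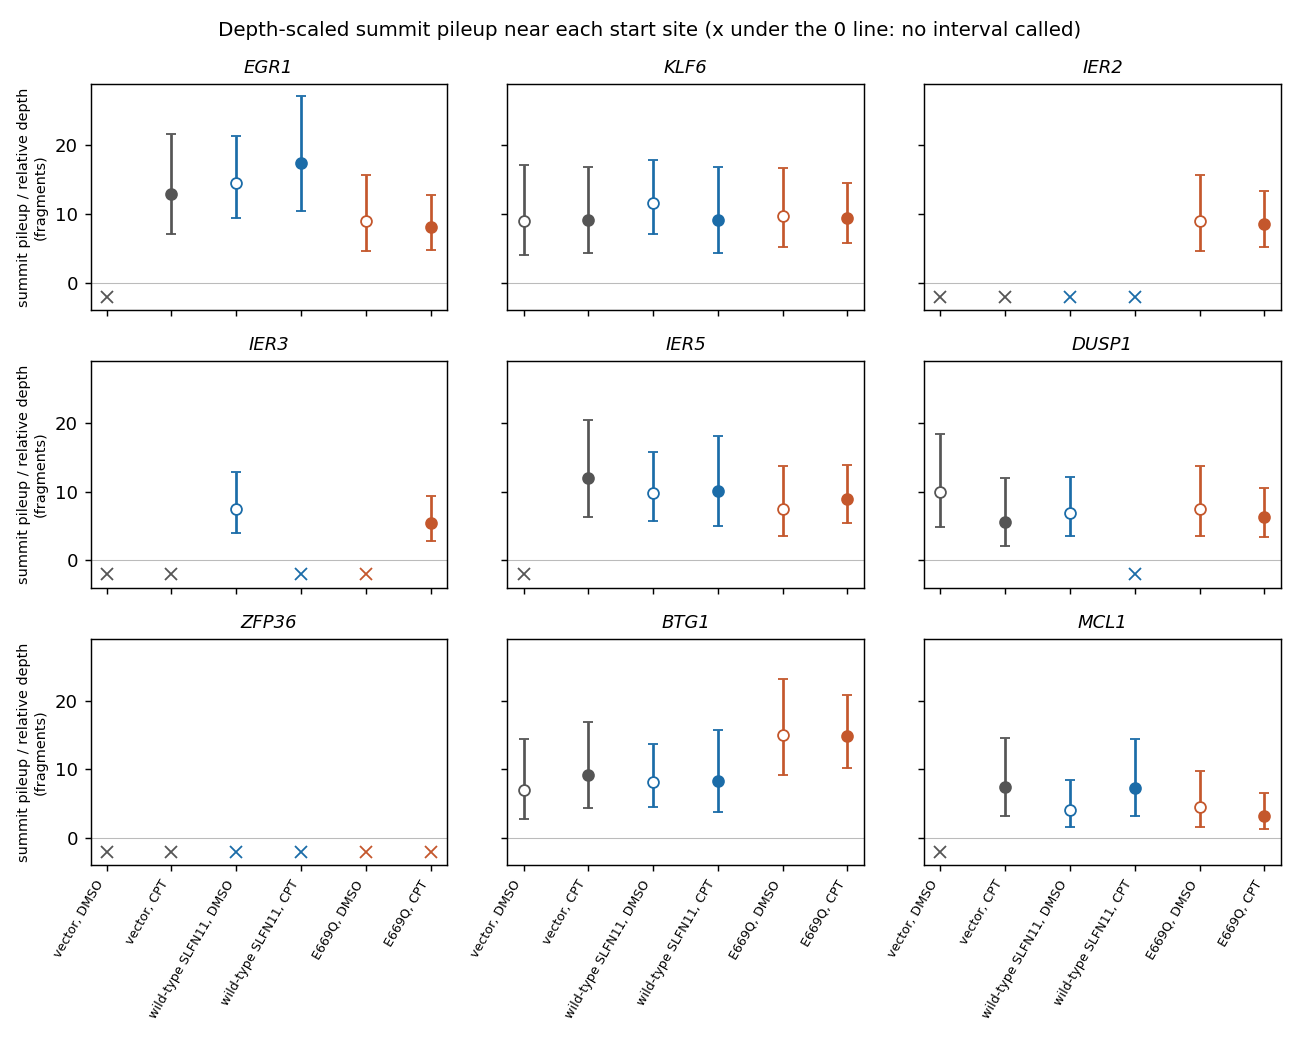
Depth-scaled summit pileup (fragments, vertical axis) of the strongest interval within 2 kb of each start site in the 6 libraries (horizontal axis), with exact Poisson 95% intervals, open points for DMSO, filled points for CPT and a cross under the 0 line where no interval was called. EGR1 was highest in wild-type SLFN11 with CPT (17.4), where its summit lay further upstream (688 bp) than in the other libraries. By the authors' fold EGR1 was highest in vector with CPT (6.77 against 6.66). BTG1 was highest in both E669Q libraries (15.0 and 14.9).

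EGR1 codes for a zinc finger transcription factor and is a standard target of SRF, the factor that binds CArG boxes. Its intervals lay upstream of the start site (chromosome 5, 137801181, plus strand). The authors' fold was 6.77 in CPT-treated vector cells, 6.16 (DMSO) and 6.66 (CPT) in cells with wild-type SLFN11, and 5.11 (DMSO) and 4.71 (CPT) in the E669Q line. The −log10 q-values in the same order were 7.18, 10.7, 8.74, 4.42 and 5.72. Vector with DMSO had no interval there. The depth-scaled summit pileup was 12.9 in CPT-treated vector cells, 14.5 (DMSO) and 17.4 (CPT) in cells with wild-type SLFN11, and 8.99 (DMSO) and 8.11 (CPT) in the E669Q line. Both E669Q values were below the other 3. The higher E669Q value was 0.699 times the lowest of the others, with a 95% interval for counting error (0.295 to 1.63) that includes 1. These libraries were picked by their values, and the interval does not allow for that choice. Among regions called in every library but vector with DMSO, 16.2% had both E669Q values below the other 3, so this order was not rare.

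The position of the EGR1 summit varied. The strongest summit lay 387 bp upstream of the start in CPT-treated vector cells and 384 bp in DMSO-treated wild-type SLFN11 cells, and in the E669Q line it lay 425 bp (DMSO) and 541 bp (CPT) upstream. In wild-type SLFN11 with CPT it lay 688 bp upstream, in an interval of 201 bp that spans 744 to 544 bp upstream. With DMSO the same line had an interval of 752 bp, from 806 to 55 bp upstream, with 3 summits. The part nearest the start was thus not in the called interval of wild-type SLFN11 with CPT. That library ranks low in depth (1.09 against 1.72 with DMSO), and the part of depth in the narrower interval was not tested. Vector with CPT, at a depth of 1.09 as well, had an interval of 459 bp from 585 to 127 bp upstream. E669Q with DMSO had a further weak interval from 1025 to 841 bp upstream (fold 3.95, −log10 q 2.19).

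KLF6, a zinc finger factor of the Krüppel-like family, varied least in depth-scaled pileup of the genes called in at least 5 libraries. Its start site is on chromosome 10 at 3827473 on the minus strand, and its intervals lay just upstream of or across it. The depth-scaled pileup was 9 and 9.20 in vector with DMSO and CPT, 11.6 and 9.17 in wild-type SLFN11, and 9.74 and 9.46 in E669Q. The highest was 1.29 times the lowest. The authors' fold was 5.99 and 6.06 in vector, 8.24 and 5.81 in wild-type SLFN11, and 6.56 and 7.91 in E669Q, a wider relative range than that of IER5 below. The −log10 q-values were 4.71 and 5.04, 12.2 and 4.62, and 6.73 and 12.2. Summits lay 124 to 307 bp upstream of the start in the 6 libraries.

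**Figure D2:**
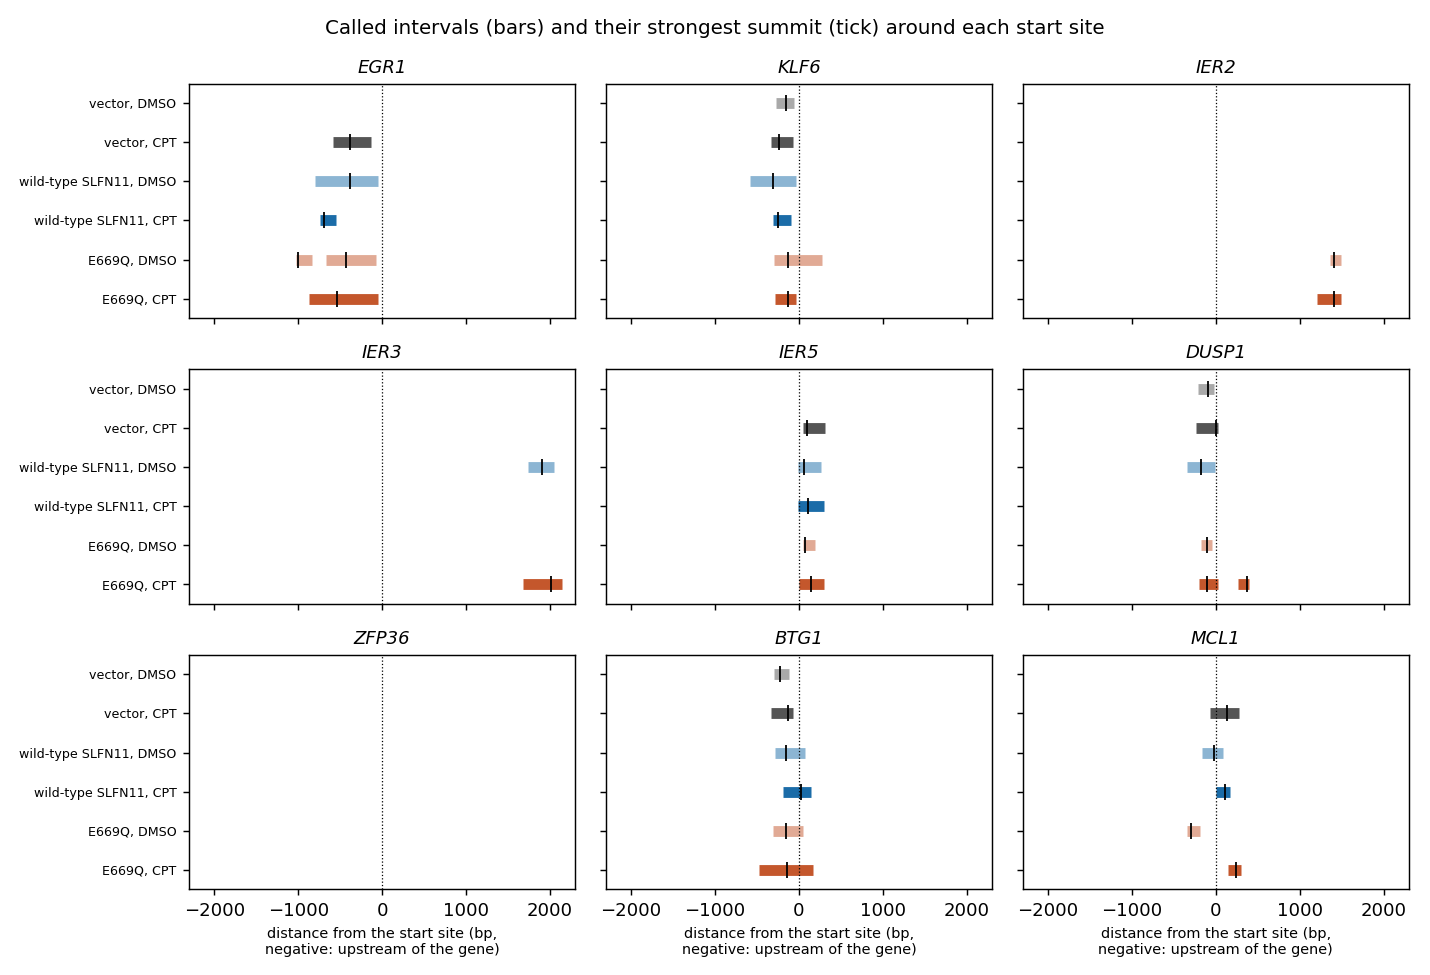
Called intervals (bars) and the strongest summit of each (tick) by distance from the start site (bp, negative upstream of the gene) in the 6 libraries, with pale bars for DMSO and dark bars for CPT. KLF6, DUSP1, BTG1 and IER5 have intervals at or near the start, EGR1 has them upstream, and IER2 and IER3 have them downstream, with summits at 1412 to 2013 bp.

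DUSP1 is a phosphatase that dephosphorylates and switches off MAP kinases. Its start site is on chromosome 5 at 172198203 on the minus strand, and 5 libraries had an interval at or just upstream of it. The depth-scaled pileup was 10.0 (DMSO) and 5.52 (CPT) in vector cells, 6.97 in DMSO-treated wild-type SLFN11 cells, and 7.49 (DMSO) and 6.31 (CPT) in E669Q cells. The fold was 6.21 and 4.31 in vector, 5.09 in wild-type SLFN11 with DMSO, and 5.51 and 5.64 in E669Q, with −log10 q-values of 5.21 and 2.07, 4.60, and 4.46 and 5.99. Wild-type SLFN11 with CPT had no interval. It was the one library of the 6 without an interval within 2 kb of the DUSP1 start, and of all regions called in exactly 5 libraries, 30.0% lacked this library. The vector value with CPT was near the end of its list, at rank 98.8% by −log10 p. E669Q with CPT had a further weak interval 267 to 396 bp downstream of the start (fold 3.76, −log10 q 2.07).

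ZFP36 codes for tristetraprolin, which binds AU-rich elements and speeds the decay of cytokine and immediate early mRNAs. No library had an interval within 2 kb of its start site (chromosome 19, 39897487, plus strand). No interval appeared with a window of 5 kb either. Its nearest regions are described with the sites further out.

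BTG1, an antiproliferative protein that works with the mRNA deadenylation machinery, had the interval with the highest −log10 q of the 9 genes. Its start site is on chromosome 12 at 92539673 on the minus strand. The depth-scaled pileup was 7 and 9.20 in vector with DMSO and CPT, 8.13 and 8.25 in wild-type SLFN11, and 15.0 and 14.9 in E669Q. The fold was 4.86 and 5.21, 5.26 and 5.96, and 7.88 and 8.69 in the same order, and the −log10 q was 2.88 and 3.88, 5.42 and 4.64, and 11.3 and 19.4. Both E669Q libraries were thus above the other 4, on each of these 3 scales. The lower E669Q pileup was 1.62 times the highest of the others (0.778 to 3.68). These libraries were picked by their values, and the interval does not allow for that choice. Of 2114 regions with a recovered pileup in all 6 libraries, 4.07% had both E669Q values above the other 4. The interval was widest in E669Q with CPT, the deepest library, with 646 bp against 181 to 357 bp in the other 5 libraries. In E669Q with DMSO it was 351 bp, against 357 bp in wild-type SLFN11 with DMSO. Widths, −log10 q-values and ranks were not scaled for depth. By −log10 p it ranked within the top 8.76% of intervals in E669Q with DMSO and the top 3.84% with CPT. In the other 4 libraries it ranked between 51.3% and 83.9%. BTG1-DT, a long non-coding RNA, starts on the other strand within the RefSeq sequence printed above, and ATAC-seq does not tell which of these starts an interval serves.

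MCL1, an antiapoptotic member of the BCL2 family with a short-lived mRNA and protein, had the lowest depth-scaled pileup of the 9 genes, 3.15 in E669Q with CPT. Its start site is on chromosome 1 at 150552214 on the minus strand. The depth-scaled pileup was 7.36 in CPT-treated vector cells, 4.07 (DMSO) and 7.33 (CPT) in cells with wild-type SLFN11, and 4.50 (DMSO) and 3.15 (CPT) in the E669Q line. The fold was 6.43, 4.47 and 5.41, and 5.02 and 4.20, and the −log10 q was 5.39, 2.67 and 3.74, and 3.33 and 2.34. Vector with DMSO had no interval. Summit pileups before scaling were 6 to 8 fragments, where the median of these 5 lists was 9 to 11. Positions also scattered, from 289 bp upstream in E669Q with DMSO to 244 bp downstream with CPT, and these 2 intervals did not overlap.

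Of the 3 remaining genes, IER2 and IER5 code for related proteins and IER3 does not. IER5 codes for a regulator of heat shock factor activity. Its start site is on chromosome 1 at 181057638 on the plus strand, and its intervals began at most 10 bp upstream and ended at most 313 bp downstream. In 3 of the 5 libraries they reached over the start, and in vector with CPT and E669Q with DMSO they began 47 and 48 bp after it. The depth-scaled pileup was 12.0 in CPT-treated vector cells, 9.87 (DMSO) and 10.1 (CPT) in cells with wild-type SLFN11, and 7.49 (DMSO) and 9.01 (CPT) in the E669Q line. The fold was 7.10, 6.33 and 5.28, and 5.56 and 6.19, with −log10 q-values of 7.33, 8.05 and 4.15, and 4.53 and 8.92. Vector with DMSO had none. The highest was 1.60 times the lowest, and all 5 Poisson intervals overlapped.

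IER2 and IER3 had no interval at the start itself. For IER2, a nuclear protein (chromosome 19, 13261282, plus strand), the 2 E669Q libraries had an interval with a summit 1414 bp downstream with DMSO and 1412 bp with CPT, and no other library did. The fold was 4.61 and 5.17, the −log10 q 3.72 and 6.82, and the depth-scaled pileup 8.99 and 8.56. How many of all regions were called in these 2 libraries alone was not computed, and E669Q with CPT is the deepest library. The local background there was 2.65 and 2.86 times the median of its list. A raised background was not particular to IER2. It was 2.22 to 3.65 times the median at EGR1, and 2.4 (DMSO) and 2.9 (CPT) times at BTG1 in E669Q. For IER3, a regulator of apoptosis (chromosome 6, 30712331, minus strand), wild-type SLFN11 with DMSO had a summit 1909 bp downstream (fold 7.51, −log10 q 8.41) and E669Q with CPT had one 2013 bp downstream (fold 5.27, −log10 q 4.88). These are the deepest libraries of the series (1.72 and 2.22). In RefSeq the next genes on that side are IER3-AS1 and then FLOT1, so the interval need not belong to IER3. With a window of 1 kb neither IER2 nor IER3 was called in any library.

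Treatment with CPT was compared with DMSO within each line, first by presence. In the vector line 3 of the 6 intervals with CPT (EGR1, IER5 and MCL1) had no overlap with the DMSO list, and 45.1% of all CPT intervals of this line had none. None of its 3 DMSO intervals was lost, where 39.5% of all DMSO intervals were. In the wild-type SLFN11 line 2 of 7 DMSO intervals were lost (IER3 and DUSP1), against 59.5% of all, and none of the 5 CPT intervals was gained, against 15.1%. The E669Q line gained 3 of its 9 CPT intervals (IER3, a further interval of DUSP1, and MCL1), against 45.2%, and 1 of 8 DMSO intervals was lost (MCL1), against 19.0%. Among intervals within the pileup range of these genes, the gained shares were 48.1% in vector, 7.1% in wild-type SLFN11 and 43.9% in E669Q. The lost shares in that range were 39.8%, 59.0% and 17.7%. The 3 of 6 intervals gained in the vector line were close to both of its background shares. With 3 to 9 intervals a library, these counts were read only beside those shares, and no test was made.

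Depth differed between the libraries of the SLFN11 lines, and intervals called in 1 library were scaled down to the depth of the other. The vector libraries were nearly equal in depth. Scaled down to the depth of vector with DMSO, the EGR1 interval of vector with CPT had a −log10 p of 10.6, that of IER5 10.7 and that of MCL1 8.72, and the lowest in the DMSO list was 5.29. Vector with DMSO was also the library most often missing from regions called in exactly 5, with 36.0% of them. In the wild-type SLFN11 line, scaling down to the CPT depth left IER3 at 8.42 and DUSP1 at 5.61, where the lowest listed value was 5.31. In the E669Q line IER3 with CPT scaled to 5.60 at the DMSO depth, where the lowest was 5.09. These intervals were chosen for being called in 1 library, and only that library's values could be scaled, so the part of depth in the calls was not tested.

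Summit pileups were then compared at the genes called in both libraries of a line. In the vector line the CPT over DMSO ratio of the depth-scaled pileup was 0.552 at DUSP1 (95% interval 0.165 to 1.68), 1.02 at KLF6 (0.373 to 2.84) and 1.31 at BTG1 (0.451 to 4.07). The median over all 3160 shared intervals was 0.959. DUSP1 was lower by more than 1.5-fold, as were 12.5% of shared intervals, and none of the 3 was higher by that much, as were 8.23%. By the authors' fold the DUSP1 ratio was 0.694 and did not pass 1.5-fold.

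In the wild-type SLFN11 line the ratio was 1.20 at EGR1 (0.625 to 2.27), 1.02 at IER5 (0.432 to 2.31), 0.789 at KLF6 (0.330 to 1.77), 1.01 at BTG1 (0.387 to 2.52) and 1.8 at MCL1 (0.572 to 5.84). The median of these 5 was 1.02, and that of 4691 shared intervals 0.973. MCL1 was higher by more than 1.5-fold, as were 11.6% of shared intervals, and none was lower by that much, as were 14.8%. The EGR1 ratio compares summits at different positions, 688 bp (CPT) and 384 bp (DMSO) upstream. The MCL1 value rests on 8 fragments with CPT and 7 with DMSO. By the ratio of the authors' fold it was 1.21, so it did not pass 1.5 on that scale, and IER5 was at 0.834.

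In the E669Q line the ratio was 0.902 at EGR1 (0.411 to 2.05), 0.952 at IER2 (0.439 to 2.15), 1.20 at IER5 (0.537 to 2.88), 0.842 at DUSP1 (0.348 to 2.12), 0.971 at KLF6 (0.464 to 2.11) and 0.992 at BTG1 (0.552 to 1.82). At MCL1 it was 0.701 (0.202 to 2.53), between intervals that do not overlap. The median of the 7 was 0.952, and that of 6728 shared intervals 0.842. None of the 7 passed 1.5-fold, against 3.09% of shared intervals higher and 23.4% lower. All 15 intervals over the 3 lines included 1. At genes called in both libraries of a line, no change with CPT was thus detectable at this depth. Changes of the size the intervals allow could be present. Genes called in 1 library of a line have no ratio and are not covered. These are EGR1, IER5 and MCL1 in vector, IER3 and DUSP1 in wild-type SLFN11, and IER3 in E669Q. Over the 3 lines, paired by line, KLF6 changed by a mean of −0.12 ± 0.20 (SD, n = 3) on the log2 scale and was higher with CPT in 1 of 3 lines (exact sign-flip test, two-sided p = 0.5, adjusted 0.5). BTG1 changed by 0.13 ± 0.23 (SD, n = 3) and was higher in 2 of 3 (exact sign-flip test, two-sided p = 0.5, adjusted 0.5). The smallest p this test can give is 0.25. By the authors' fold the E669Q ratio was 1.21 at KLF6 and 1.10 at BTG1, on the other side of 1, as were IER2 (1.12) and DUSP1 (1.02). Scaled by the regions called in all 6 libraries, EGR1 (1.05), IER2 (1.11), KLF6 (1.13) and BTG1 were also above 1 in this line.

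**Figure D3:**
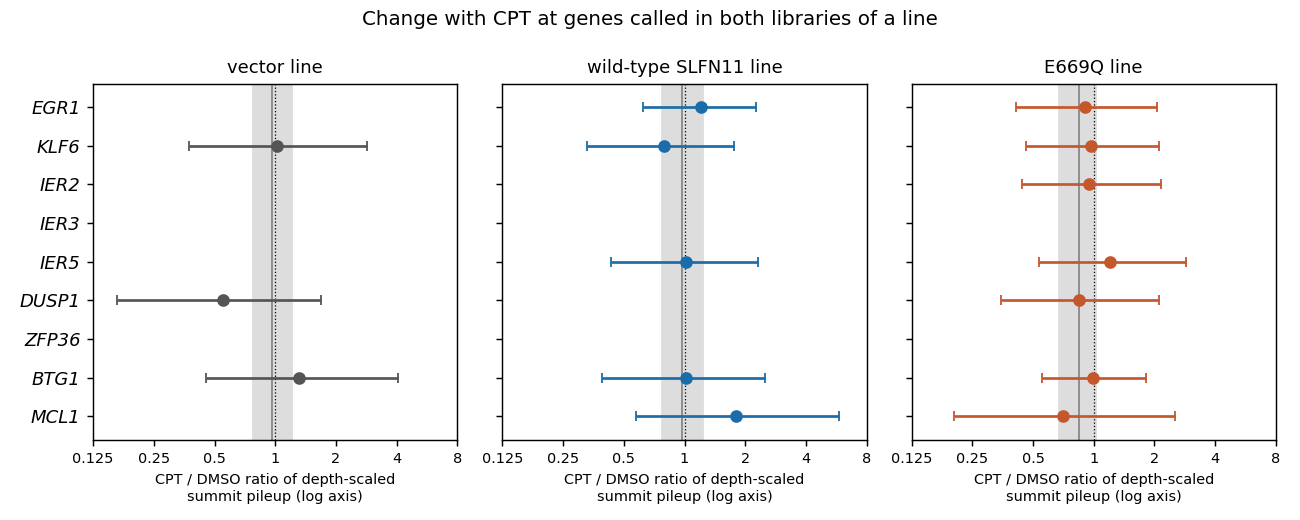
CPT over DMSO ratio of the depth-scaled summit pileup (horizontal log axis) for each gene called in both libraries of a line, with 95% intervals for counting error, a grey band and line for the middle 50% and median of all shared intervals, and a dotted line at 1. Each gene's interval crosses 1, from DUSP1 in the vector line (0.552) to MCL1 in the wild-type SLFN11 line (1.8).

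The SLFN11 lines were also set beside the vector line at each treatment, where both comparisons share the same vector library. With DMSO, 3 genes could be compared. For wild-type SLFN11 over vector the ratios were 0.697 at DUSP1, 1.29 at KLF6 and 1.16 at BTG1, so none passed 1.5-fold, against 10.1% of shared intervals higher and 13.5% lower. For E669Q over vector they were 0.749 at DUSP1, 1.08 at KLF6 and 2.14 at BTG1 (0.870 to 5.99). BTG1 was thus the 1 gene past 1.5-fold, with 8.45% of shared intervals higher and 17.7% lower.

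With CPT, wild-type SLFN11 and vector had nearly equal depth, and 5 genes were called in both. The ratio was 1.35 at EGR1 (0.643 to 2.92), 0.844 at IER5 (0.342 to 2.04) and 0.897 at BTG1 (0.323 to 2.46). The EGR1 summits compared lay at different positions, 688 bp (wild-type SLFN11) and 387 bp (vector) upstream. By the authors' fold EGR1 was at 0.984 and BTG1 at 1.14, each on the other side of 1. At KLF6 and MCL1 both libraries had the same summit pileup, 10 and 8 fragments, and the ratio was 0.997. None passed 1.5-fold, against 10.9% of shared intervals higher and 15.3% lower. For E669Q over vector with CPT the ratio was 1.62 at BTG1 (0.778 to 3.68), 1.14 at DUSP1, 1.03 at KLF6 and 0.754 at IER5. It was 0.630 at EGR1 (0.296 to 1.37) and 0.429 at MCL1 (0.132 to 1.35). BTG1 was higher by more than 1.5-fold, where 4.6% of shared intervals were, and EGR1 and MCL1 were lower, where 29.5% were. By the authors' fold the EGR1 ratio was 0.696, and scaled by the regions called in all 6 libraries it was 0.707, so it did not pass 1.5-fold on either scale. The MCL1 ratio was 0.654 by the authors' fold. The 95% interval of each ratio over vector, at either treatment, included 1.

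Further out, between 2 and 20 kb from the start sites, 8 merged regions were called near 5 of the genes (IER2, IER5, DUSP1, KLF6 and ZFP36), and none near the other 4. Of these 8, 3 were in at least 4 libraries. The first, 16.6 to 17.2 kb downstream of IER5 (chr1:181074216-181074856), was in every library but vector with DMSO. Its fold was 7.98 in CPT-treated vector cells, 6.99 (DMSO) and 4.63 (CPT) in cells with wild-type SLFN11, and 8.94 (DMSO) and 5.53 (CPT) in the E669Q line. The depth-scaled pileup was 12.0, 9.87 and 6.42, and 12.0 and 6.31. In both SLFN11 lines it was lower with CPT, and the difference was not tested. The vector line could not be compared, since its DMSO library had no call. Of all shared intervals, 14.8% in wild-type SLFN11 and 23.4% in E669Q were lower with CPT by more than 1.5-fold in depth-scaled pileup. The median ratios were 0.973 and 0.842.

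ZFP36 had the other 2. The region 5.29 to 5.78 kb downstream of its start (chr19:39902773-39903262) was in every library but vector with DMSO. Its fold was 6.57 in CPT-treated vector cells, 7.84 (DMSO) and 5.66 (CPT) in cells with wild-type SLFN11, and 9.01 (DMSO) and 5.24 (CPT) in the E669Q line. The region 15.4 to 15.8 kb upstream (chr19:39881639-39882047) was in every library but vector with CPT, with a fold of 7.06 in vector with DMSO, 6.97 and 5.20 in wild-type SLFN11, and 4.52 and 5.23 in E669Q. In RefSeq the next genes are MED29 and then PAF1 upstream of ZFP36, and MIR4530, a tRNA gene and PLEKHG2 downstream of it. Which gene's start, if any, these regions mark was not determined, since no hg19 annotation was used.

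The other 5 regions were in 1 to 3 libraries. DUSP1 had 1 region 5.62 to 5.87 kb downstream (chr5:172192332-172192584), in vector with CPT (fold 6.51) and in E669Q with DMSO (6.18) and CPT (7.56). It had another 18.0 to 18.2 kb upstream, in wild-type SLFN11 (5.85) and E669Q (5.53) with DMSO. IER2 had 1 region 12.4 to 12.8 kb downstream, in the E669Q libraries alone (4.17 with DMSO and 6.41 with CPT), as was its interval within 2 kb. The call with DMSO was near the end of its list (rank 99.2% by −log10 p, −log10 q 2.04). The share of all regions called in the E669Q libraries alone was not computed, so this pattern is not shown to be particular to IER2. KLF6 had 2 regions over 18 kb upstream, in 1 library each (4.48 and 4.11). In all, the 18 regions within 20 kb of a start site were called 4 and 10 times in vector with DMSO and CPT, 12 and 8 times in wild-type SLFN11, and 13 and 14 times in E669Q. Of all merged regions, 29.7% and 32.7%, 65.7% and 31.4%, and 46.9% and 69.2% were called in the same order. These counts were read only beside those shares, and no test was made.

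**Figure D4:**
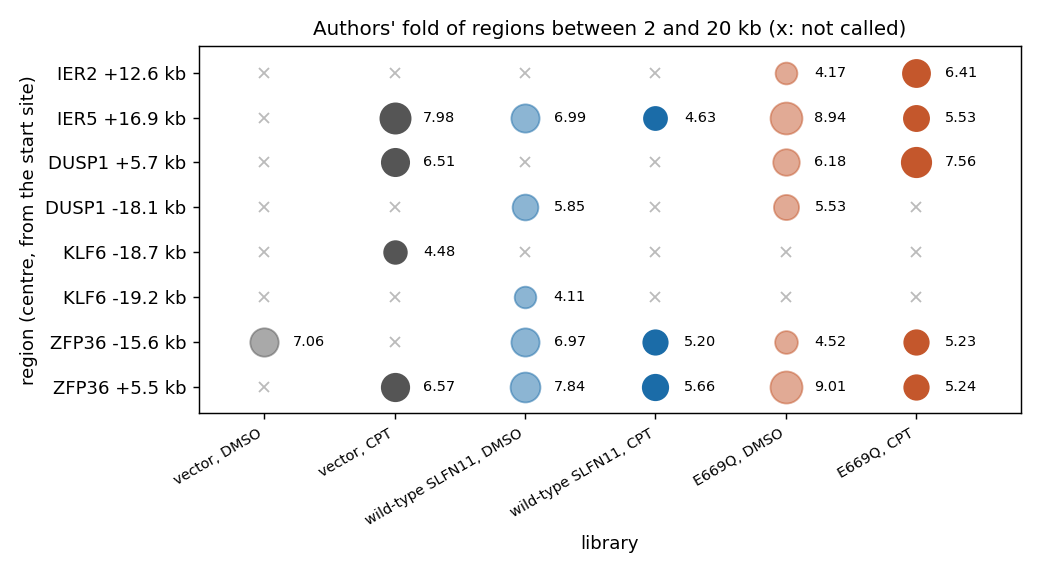
The authors' fold (size of each point, and number beside it) of the 8 regions between 2 and 20 kb from a start site, in the 6 libraries (horizontal axis), with 1 row per region, named by the distance of its centre from the start in kb (positive downstream), and a cross for each library without a call. The regions downstream of IER5 and ZFP36 were called in 5 libraries each, with folds of 4.63 to 9.01.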

How the data were processed

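MACS2 2.1.2, Picard 2.9.2, SAMtools 1.8, Bowtie2 2.2.6 and Trimmomatic 0.39 are named beside the hg19 build, per the submitters' processing notes, without roles or settings. Duplicate removal and read shifting are not given in the sources used here. Lists as deposited hold peaks per library, with a fold (a ratio over local background), a −log10 p and a −log10 q by the authors. In 100% of entries the deposited score equalled 10 times that −log10 q, cut to a whole number.

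Entries of 1 interval were reduced to the summit of highest −log10 p. Fold and −log10 p were taken to follow the MACS2 formulas. They were solved together for a whole summit pileup and a background, to within 0.001 in −log10 p. This succeeded in 98.7% to 99.3% of a list. Relative depth was the lowest background over the step between backgrounds. Intervals were matched by at least 1 bp. Ratios carry exact conditional binomial 95% intervals, for counting error only. Start sites are on hg19, and strand was taken from RefSeq, or for IER3 and MCL1 from general knowledge. Other immediate early genes were not analysed here. All 9 genes are named, and regions beyond 2 kb are given by position where at least 4 libraries held them, with the DUSP1 region at 5.62 kb chosen after its values were seen. The comparison of E669Q with the other libraries at BTG1 and EGR1 was also chosen after its values were seen. The genes and lists were chosen with earlier results of these data known. The scripts were tested on simulated data. Computation used scipy 1.17.1, pandas 2.3.3, matplotlib 3.10.9 and numpy 2.4.6 under Python 3.11.15.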

Additional observations from a re-analysis of the deposited data

Results flagged for a closer look

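The interval downstream of IER3 was called under opposite treatments in 2 lines. It was called with DMSO alone in the wild-type SLFN11 line (authors' fold 7.51) and with CPT alone in the E669Q line (authors' fold 5.27). Each group is 1 library, and the difference between the lines was not tested. The 2 libraries that hold it are the deepest of the series, at 1.72 and 2.22 times the depth of vector with DMSO. The other library of each line was at 1.09 (wild-type SLFN11 with CPT) and 1.33 (E669Q with DMSO). The part of depth in these calls was not tested.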

How the results depend on the processing

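All 68 alternative ratios (scaling by regions called in all 6 libraries, or the authors' fold) lay within the wide 95% interval of the ratio. Of these, 11 lay on the other side of 1 and 1 moved by over 1.5 times (MCL1 for E669Q over vector with CPT, 0.654). None of the ratios past 1.5-fold changed direction. For BTG1 the lower E669Q value over the highest other was 1.57 and 1.32 under these alternatives, and for EGR1 the higher E669Q value over the lowest other was 0.72 and 0.829. Of 90 alternative counts, 62 were within 1.5 times the count reported and 28 were not. With −log10 q of at least 5, the genes called were 1 in vector with DMSO, 1 in wild-type SLFN11 with CPT and 2 in E669Q with DMSO. In lists cut to 5246 intervals they were 4 in wild-type SLFN11 with DMSO, 2 in E669Q with DMSO and 4 in E669Q with CPT. Scaled to the shallowest depth, E669Q with CPT had 4 genes. Counts of gained and lost intervals were the least stable. With an overlap of 50% of both intervals, the wild-type SLFN11 line had 3 gained and 5 lost and the E669Q line 6 gained and 5 lost. In lists of 5246, the vector line had 1 lost, the wild-type SLFN11 line 2 gained and 1 lost and the E669Q line 0 lost. With −log10 q of at least 5, these lines had 1, 4 and 0 lost. The 1 gene past 1.5-fold with CPT in the vector line (lower) and in the wild-type SLFN11 line (higher) became 0 by the authors' fold and at 2-fold. Regions within 20 kb with −log10 q of at least 5 were 2 in vector with DMSO, 1 in wild-type SLFN11 with CPT and 5 in E669Q with DMSO. In lists of 5246 they were 7 in wild-type SLFN11 with DMSO, 5 in E669Q with DMSO and 6 in E669Q with CPT. Shorter lists hold fewer intervals by construction. Summit pileups of 6 to 33 fragments limit what could be told apart. No analysis paired by replicate was possible because each group is 1 library, so groups share fewer than 2 replicate numbers. The sign-flip test of KLF6 and BTG1 pairs treatments by line, not by replicate.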
